A study of Mus musculus with 45 samples.

Results

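Of the 54532 genes in the count table, 7 were taken by their symbols: the COUP-TF genes Nr2f1, Nr2f2 and Nr2f6, the genes Nr6a1, Nr5a2 and Nr0b1 that are known from early embryonic cells, and Nr2e1 of neural stem cells. All 7 belong to the nuclear receptor superfamily, and their levels in every library were followed from day 2 to 78 h with and without all-trans retinoic acid (RA), with the question of when the early-state genes gave way to the neural ones. Organoids grew clonally in Matrigel and N2B27 medium from R1 cells, a wild-type mouse embryonic stem cell line. At day 2 one set was collected before treatment, and the others received plain N2B27 (untreated) or N2B27 with 250 nM RA and were collected 8, 18, 30, 42, 54, 66 or 78 h later. Each of these 15 groups had 3 biological replicates, so that 45 libraries of polyadenylated RNA were compared. All groups came from one line, and each library was made from whole organoids, so that fewer cells of a type and less RNA per cell cannot be told apart in any result given here.

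Total counts per library lay between 17298632 and 39688686, and 3 counts corresponded to 0.08 to 0.183 CPM (counts scaled to library size, with TMM between libraries). The label of a neural tissue was met by its markers: the summed level of 13 neural progenitor genes was 577 to 598 CPM at day 2, 1410 to 1640 CPM in untreated and 1730 to 1980 CPM in RA-treated organoids at 78 h, with no marker at 0 in any of these groups. Sox2 went the other way, from 406 CPM on average at day 2 to 220 CPM untreated and 235 CPM with RA. In each arm 11 of the 13 were called higher at 78 h than at day 2, and 0 lower. Of all genes, 34% were called in either direction without RA and 37.4% with it. The summed level of 18 early-state markers was 5470 to 5830 CPM at day 2, and at 78 h it was 1590 to 1830 CPM untreated and 572 to 1070 CPM with RA. Much of this gap lay in Dnmt3b (784.3 against 109.9 CPM on average) and Pou5f1 (282.8 against 94.7 CPM). Of the 18 markers 7 were called between the arms at 78 h (11.7% of all genes), 3 higher and 4 lower under RA, with a median log2 fold change of 0.16. Some libraries stood apart from the rest. The mean of 4 Y-linked genes was 1.22 to 3.65 CPM in 6 libraries (replicate 3 of RA 8 h and, among those collected at 30 h, all untreated ones and RA replicates 1 and 3) and 22.9 to 89.5 CPM in the other 39. RA 8 h replicate 3 did hold the RA response (Cyp26a1, an RA-degrading enzyme, at 181.7 CPM, against 5.16 to 5.82 CPM in untreated libraries of that time), but it differed from its group in several of the genes described here. At 30 h, RA replicate 2 was the library that differed. Fold changes between the arms at 8 h and 30 h are therefore given with and without RA 8 h replicate 3 and RA 30 h replicate 2. Leaving out the latter keeps only libraries with low Y-linked levels at 30 h. No result at 30 h is thus free of such libraries.

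Nuclear receptors are transcription factors that bind DNA through paired zinc fingers, and most of them recognise copies of the core motif AGGTCA. Orphan receptors are those for which no hormone was known when they were named. Nr5a2 (LRH-1) and Nr0b1 (DAX1, which lacks the usual DNA-binding domain) belong to the gene network of pluripotent cells, Nr6a1 (GCNF) is known as a repressor of Pou5f1 when pluripotent cells differentiate, and the COUP-TFs pattern the developing nervous system and were early found to respond to RA. AGGTCA was therefore searched on both strands in windows of the 250 bases before each RefSeq start and a short stretch after it (GRCm38.p6). The sequence stood in 5340 of 32851 such windows of all genes (16.3%). Of the members, Nr0b1 held it once in its single window, Nr5a2 once in one of 2 windows and Nr6a1 in one of 2 windows, with 2 copies, and a pair of AGGTCA copies in the same direction with 1, 2 or 5 bases between them, searched on both strands, was in no member's window (0.0396%, 0.00913% and 0.00913% of all windows). Both windows of Nr2f1 lay wholly within its annotated exons, so the bases before its annotated gene start were not searched. Shown here are only the 250 bases before the start. They come from the windows with the motif of Nr5a2 and Nr0b1, genes that fell in both arms after day 2. The last is from the window of Nr2f2, which rose. Capitals mark AGGTCA. The first lies at chr1:136960449-136960698 on the minus strand, the second at chrX:86191525-86191774 on the plus strand, and the third at chr7:70366747-70366996 on the minus strand.
Nr5a2: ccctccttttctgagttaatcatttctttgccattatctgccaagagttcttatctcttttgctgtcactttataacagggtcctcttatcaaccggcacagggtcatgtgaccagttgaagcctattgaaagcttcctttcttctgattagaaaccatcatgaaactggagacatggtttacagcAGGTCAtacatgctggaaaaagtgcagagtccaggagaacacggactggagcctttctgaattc
Nr0b1: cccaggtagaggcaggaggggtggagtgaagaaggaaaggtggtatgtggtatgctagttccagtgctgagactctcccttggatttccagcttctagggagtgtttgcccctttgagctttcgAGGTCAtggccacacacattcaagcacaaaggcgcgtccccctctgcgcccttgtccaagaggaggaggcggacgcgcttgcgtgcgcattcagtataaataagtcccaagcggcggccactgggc
Nr2f2: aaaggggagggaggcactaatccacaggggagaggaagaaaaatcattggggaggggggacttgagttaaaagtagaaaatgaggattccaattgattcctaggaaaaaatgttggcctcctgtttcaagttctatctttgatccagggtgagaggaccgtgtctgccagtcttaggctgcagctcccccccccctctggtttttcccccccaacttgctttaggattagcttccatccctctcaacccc
A match is a description of these letters and not a bound site, and the Nr2f2 window shows only that the letters are not in it.

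Nr2f1 (COUP-TFI, chr13:78188973-78199757, minus strand, 7 merged exons) was nearly silent at the start and was the member with the largest rise. At day 2 the 3 libraries held 1, 2 and 1 counts, which corresponds to 0.0415, 0.0999 and 0.0415 CPM. Without RA it stayed low for a day: 0.0902, 0.247 and 0.187 CPM at 18 h, and 0.414, 0.122 and 0.306 CPM at 30 h. Every untreated library up to 30 h thus lay under 1 CPM. Later values in untreated organoids were 2.24, 2.59 and 1.88 CPM at 42 h, 9.17, 15.8 and 17.5 CPM at 54 h, 32.4, 30.6 and 37.0 CPM at 66 h, and 57.6, 52.2 and 56.7 CPM at 78 h. From 42 h on, each of these untreated groups lay wholly above the one before it. With RA the level was 0.335, 0.362 and 0.332 CPM at 8 h, within reach of the untreated libraries (0.274, 0.0497 and 0.337 CPM), then 2.82, 1.98 and 1.83 CPM at 18 h and 12.3, 11.8 and 10.6 CPM at 30 h. It reached 59.3, 55.6 and 50.3 CPM at 42 h, a range that contains the 3 untreated libraries of 78 h. The RA-treated groups of the 3 later times lay higher and overlapped each other, with 97.5, 68.7 and 65.4 CPM at 54 h, 68.3, 66.4 and 66.2 CPM at 66 h, and 67.2, 76.8 and 96.7 CPM at 78 h.

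RA-treated libraries lay above untreated ones for Nr2f1 at each time from 18 h to 78 h. A gene was called where the Benjamini-Hochberg adjusted p over all genes tested was under 0.01 and the log2 fold change was above 1 or below -1. By edgeR's quasi-likelihood test on the 6 libraries of a time point, Nr2f1 rose under RA by a log2 fold change of 3.61 ± 0.36 (SE) at 18 h (adjusted p = 3.54e-06), of 5.26 ± 0.31 at 30 h (adjusted p = 6.53e-05) and of 4.61 ± 0.11 at 42 h (adjusted p = 7.66e-10). Without RA 30 h replicate 2 the value at 30 h was 5.20 (adjusted p = 3.12e-12). The untreated counts behind the first value were few: 155 counts with RA stood against 15 without, a ratio of 12.3 with a 95% exact interval of 7.25 to 22.6 that covers counting error only. At 54 h the log2 fold change was 2.42 ± 0.21 (adjusted p = 4.22e-06) and at 66 h 1.02 ± 0.07 (adjusted p = 1.5e-06). The call at 66 h rests on the fold limit, since without untreated 66 h replicate 2 the log2 fold change was 0.97 (adjusted p = 2.71e-05). At 78 h it was 0.55 ± 0.11 (adjusted p = 0.00201), which is short of the limit. The RA effect at 78 h was smaller than at 42 h by a log2 difference of -4.08 ± 0.19 (interaction term, adjusted p = 5.40e-09).

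Nr2f2 (COUP-TFII, minus strand of chromosome 7, 70351944 to 70366735, 4 merged exons), known from mesenchyme, veins and parts of the brain, also rose in both arms, and from 18 h to 66 h its RA-treated libraries lay above the untreated ones. It stood at 0.207, 0.200 and 0.208 CPM at day 2. Untreated libraries held 0.113, 0.0610 and 0.0511 CPM at 30 h, when the 3 together had 5 counts. They held 4.79, 6.47 and 4.87 CPM at 42 h. All untreated libraries of 42 h were above all of 30 h, but those of 30 h were all among the libraries with low Y-linked levels. Untreated libraries of 18 h, which were not, held 0.226, 0.165 and 0.293 CPM. The onset without RA is therefore placed only between 18 h and 42 h. Further untreated values were 18.2, 21.3 and 23.5 CPM at 54 h, 38.0, 34.2 and 48.2 CPM at 66 h, and 59.2, 50.3 and 65.2 CPM at 78 h. With RA the libraries had 1.30, 1.15 and 0.957 CPM at 18 h, 4.67, 8.67 and 4.84 CPM at 30 h, and 29.3, 26.1 and 24.4 CPM at 42 h. The highest of the 3 at 30 h was replicate 2, the library that stood apart. From 54 h on the RA-treated groups lay at 51.3, 39.9 and 38.9 CPM, then 55.1, 49.5 and 54.5 CPM, and at last 50.9, 54.6 and 50.7 CPM. By 78 h the treated libraries lay within the untreated range.

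Nr2f2 rose under RA by a log2 fold change of 2.26 ± 0.35 at 18 h (edgeR, adjusted p = 1.32e-04), of 6.18 ± 0.48 at 30 h (adjusted p = 1.78e-04) and of 2.29 ± 0.12 at 42 h (adjusted p = 1.43e-07). For the value at 30 h, 587 counts with RA stood against 5 without, a ratio of 76.1 with an exact 95% interval of 32.4 to 235. Without RA 30 h replicate 2 the log2 fold change was 5.79 (adjusted p = 1.80e-10). At 54 h it was 1.03 ± 0.12 (adjusted p = 4.47e-05), a call that is lost by size without untreated replicate 1 (0.94) or without RA replicate 1 (0.87). At 66 h it was 0.41 ± 0.11 (adjusted p = 0.00870) and at 78 h -0.15 ± 0.09 (adjusted p = 0.181). The effect at 78 h was smaller than at 42 h by -2.46 ± 0.16 (interaction term, adjusted p = 5.87e-08), whereas 42 h and 18 h differed by 0.07 ± 0.54 (adjusted p = 0.946), an estimate too wide to place. Because Nr2f2 is also a mesenchymal gene, the 13 mesoderm markers are given beside it. Their summed level at 42 h was 54.3 to 58.0 CPM with RA (Msgn1 at 0 in all 3 libraries) and 37.6 to 47.0 CPM without, with 3 of 11 tested called higher (7.49% of all genes) and 3 lower (4.96%), and at 78 h it was 27.5 to 34.8 CPM (Msgn1 at 0) and 24.6 to 26.4 CPM. Much of the RA sum at 42 h was Meox1, which averaged 29.2 CPM with RA and less than Twist1 (6.45 CPM) without. Tcf15 went the other way, at 6.17 CPM with RA and 19 CPM without. The higher sum is therefore not a rise of the markers as a set. The part of these markers in the Nr2f2 result was not tested.

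**Figure D1:**
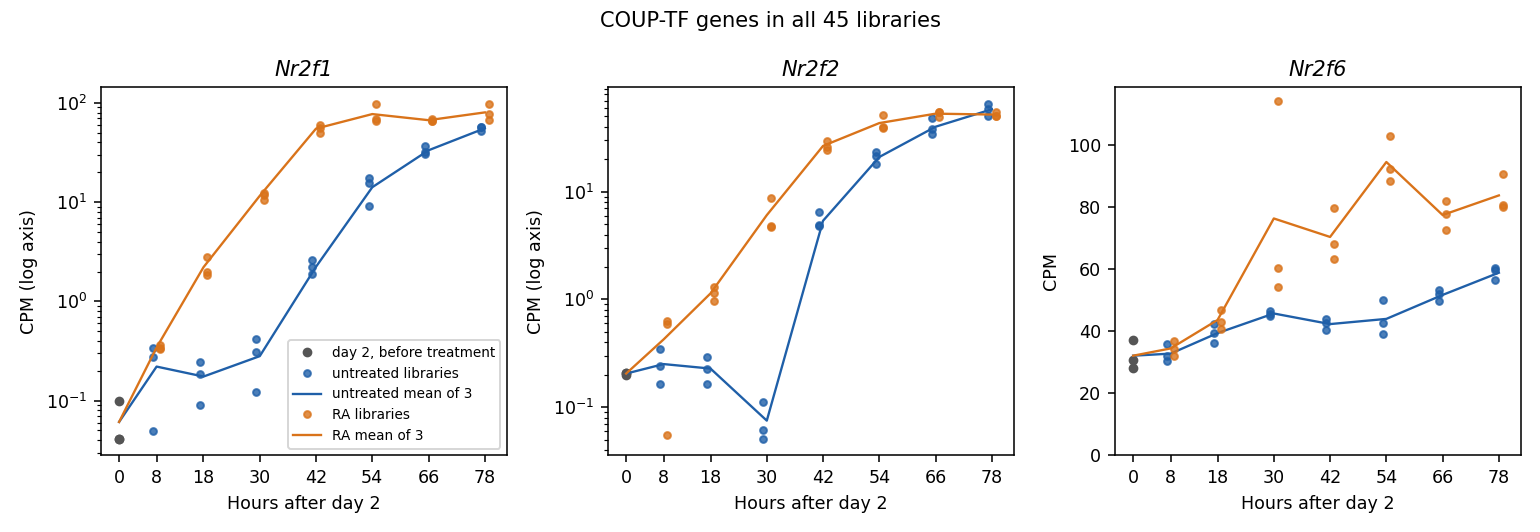
Level of Nr2f1, Nr2f2 and Nr2f6 (CPM) in each of 45 libraries against hours after day 2, with grey points for day 2, blue for untreated, orange for RA-treated libraries and lines through the means of 3. The first 2 panels have a log axis: RA-treated Nr2f1 reached 50.3 to 59.3 CPM at 42 h, a level that untreated organoids reached at 78 h, while Nr2f6 started at 28.2 to 37.3 CPM.

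Nr2f6 (EAR2, minus strand of chromosome 8, 71374123 to 71381960, 5 merged exons), the third COUP-TF gene and a broadly expressed one, was present from the start, at 30.8, 28.2 and 37.3 CPM at day 2. Untreated libraries had 42.8, 40.3 and 43.8 CPM at 42 h and 56.4, 59.6 and 60.5 CPM at 78 h, a log2 fold change of 0.87 ± 0.08 from day 2 (edgeR, adjusted p = 8.02e-08) that is under the limit. RA-treated libraries lay above untreated ones at each time from 30 h on. They had 79.8, 68.0 and 63.4 CPM at 42 h, 103, 88.3 and 92.3 CPM at 54 h, and 80.8, 80.0 and 90.6 CPM at 78 h. At 54 h, where untreated libraries had 39.2, 42.8 and 49.96 CPM, Nr2f6 rose under RA by 1.09 ± 0.09 on the log2 scale (adjusted p = 3.44e-06), and at no other time did it pass both limits. The log2 fold changes at 42 h, 66 h and 78 h were 0.72 ± 0.08, 0.59 ± 0.06 and 0.52 ± 0.06 (adjusted p = 3.13e-05, 1.99e-05 and 3.33e-05). At 30 h the RA-treated libraries had 60.5, 114 and 54.2 CPM and the untreated ones 46.6, 45.0 and 45.5 CPM. The log2 fold change of 0.75 ± 0.28 there (adjusted p = 0.0836) became 0.30 (adjusted p = 0.00177) without RA replicate 2. The RA effect at 42 h exceeded that at 18 h by 0.59 ± 0.11 (interaction term, adjusted p = 0.00123), although a single fit of all 45 libraries gave 0.58 with an adjusted p of 0.0610. Exons of the 3 COUP-TF genes overlap exons on the opposite strand, those of Nr2f1 by 123 bases with A830082K12Rik (0 to 309 counts per library), those of Nr2f2 by 643 bases with B130024G19Rik (0 to 116 counts) and those of Nr2f6 by 1622 bases with Ocel1 (33 to 191 counts). The strand setting of the counting is not given in the sources used here, so reads in these stretches may be shared or lost.

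Nr2e1 (TLX, chromosome 10), which keeps neural stem cells of the adult brain dividing, was not detected as an expressed gene. It had 35 counts in all 45 libraries together, 0 counts in 25 of them and at most 6 in any one (0.197 CPM, RA 54 h replicate 2). It passed the filter on low counts in no comparison.

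Nr6a1 (minus strand of chromosome 2, 38723370 to 38927688, 16 merged exons) did not follow the other early-state genes. It had 285, 277 and 259 CPM at day 2. At 8 h untreated libraries had 394, 382 and 369 CPM, while those with RA had 656, 655 and 343 CPM. Both RA replicates 1 and 2 were above every untreated library of that time, and replicate 3, one of the low-Y libraries, was below all of them. At 18 h the groups were apart, with 330, 314 and 322 CPM untreated and 510, 518 and 511 CPM with RA. The gap then narrowed, with the RA-treated libraries still the higher ones: 242, 216 and 233 CPM untreated against 260, 317 and 251 CPM with RA at 30 h, and 316, 334 and 314 CPM against 361, 349 and 348 CPM at 42 h. The order was turned round at the later times. Untreated libraries had 344, 371 and 361 CPM at 54 h, 372, 374 and 406 CPM at 66 h, and 380, 428 and 450 CPM at 78 h. RA-treated libraries had 332, 328 and 323 CPM, then 269, 279 and 273 CPM, and then 246, 269 and 278 CPM, each group below its untreated counterpart.

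The log2 fold change of Nr6a1 under RA was 0.53 ± 0.22 at 8 h (edgeR, adjusted p = 0.164) and became 0.77 ± 0.06 (adjusted p = 1.17e-07) without RA replicate 3. It was 0.68 ± 0.04 at 18 h (adjusted p = 6.89e-08), 0.26 ± 0.12 at 30 h (adjusted p = 0.142; 0.13 and adjusted p = 0.108 without RA replicate 2) and 0.12 ± 0.05 at 42 h (adjusted p = 0.0559). At 54 h it was -0.15 ± 0.05 (adjusted p = 0.0399), at 66 h -0.48 ± 0.05 (adjusted p = 2.35e-05) and at 78 h -0.65 ± 0.07 (adjusted p = 1.22e-05). None of these passed the fold limit, but the change of the effect with time did pass its test, by -0.54 ± 0.06 between 18 h and 42 h (interaction term, adjusted p = 7.47e-06) and by -0.79 ± 0.08 between 42 h and 78 h (adjusted p = 8.77e-06). In the single fit of all 45 libraries the adjusted p of the first was 0.0195. Against day 2, untreated organoids at 78 h differed by 0.61 ± 0.06 (adjusted p = 1.60e-07), and RA-treated ones by -0.05 ± 0.06 (adjusted p = 0.457).

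Nr5a2 (minus strand of chromosome 1, 136842571 to 136960448, 10 merged exons) fell in both arms. From 85.8, 88.2 and 76.8 CPM at day 2, untreated libraries went to 47.9, 49.0 and 47.8 CPM at 8 h, to 51.7, 45.6 and 50.4 CPM at 18 h, and to 20.8, 19.9 and 19.97 CPM at 30 h. At 42 h they had 18.6, 14.9 and 16.5 CPM and at 78 h 11.8, 11.2 and 9.42 CPM. RA-treated libraries at 8 h had 38.5, 36.7 and 80.5 CPM. The third of these, the low-Y replicate 3, was at the level of day 2, and the others lay below every untreated library. At 18 h RA-treated libraries had 30.2, 38.5 and 32.7 CPM, all below the untreated ones, and from 30 h to 54 h both arms overlapped. At 66 h and 78 h the order was the reverse, with 18.8, 20.1 and 17.1 CPM and then 23.2, 20.8 and 13.7 CPM with RA, against 12.6, 11.6 and 11.6 CPM at 66 h without.

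Relative to day 2, the log2 fold change of Nr5a2 in untreated organoids was -0.76 ± 0.06 at 18 h (edgeR, adjusted p = 5.09e-07), -2.30 ± 0.08 at 42 h (adjusted p = 1.02e-11) and -2.95 ± 0.08 at 78 h (adjusted p = 2.28e-14). With RA it was -1.31 ± 0.08 at 18 h (adjusted p = 3.78e-10), -2.28 ± 0.08 at 42 h (adjusted p = 2.41e-11) and -2.11 ± 0.14 at 78 h (adjusted p = 2.72e-08). Between the arms, the log2 fold change was 0.11 ± 0.29 at 8 h (adjusted p = 0.840) and turned to -0.37 ± 0.07 (adjusted p = 8.62e-04) without RA replicate 3. It was -0.53 ± 0.08 at 18 h (adjusted p = 1.25e-04), 0.05 ± 0.14 at 30 h (adjusted p = 0.812; 0.16 and adjusted p = 0.142 without RA replicate 2), 0.66 ± 0.08 at 66 h (adjusted p = 1.34e-04) and 0.85 ± 0.17 at 78 h (adjusted p = 0.00178). The last became 1.04 (adjusted p = 7.73e-06), a call, without RA 78 h replicate 3. The effect at 42 h exceeded that at 18 h by 0.57 ± 0.14 (interaction term, adjusted p = 0.00775), a call lost when any of 8 libraries was left out (replicates 1 and 3 of both arms at 18 h, replicates 2 and 3 of both arms at 42 h, values 0.49 to 0.59, adjusted p up to 0.0365). Nr5a2 is also a gene of endoderm and its derivatives. The summed level of 13 endoderm markers at 78 h was 77.1 to 89.3 CPM with RA and 38.2 to 44.0 CPM without (Afp and Ttr at 0 in all 3 untreated libraries), with 6 of 9 tested called higher (7.66% of all genes). At 66 h it was 71.5 to 85.1 CPM and 25.9 to 35.4 CPM, with no marker at 0 and 7 of 10 called higher (7.06% of all genes). Cxcr4 alone averaged 42.9 CPM with RA and 35.2 CPM without at 78 h, and 38.1 and 25 CPM at 66 h. It was thus most of the untreated sum at both times, and it was called at only 1 of the 7 times. At 42 h, when Nr5a2 differed by 0.01 ± 0.11 (adjusted p = 0.934), the sums were 53.4 to 67.4 CPM and 8.29 to 11.9 CPM (Ttr at 0 without RA), with 8 of 10 called higher (7.49%). The 18 early-state markers also moved: from 42 h to 78 h the RA effect passed its test in 8 of them (12.6% of all genes), each time upwards, with a median change of 0.63 over the list. The part of either set of cells in the Nr5a2 levels was not tested.

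Nr0b1 (plus strand of chromosome X, 86191764 to 86195947, 2 merged exons) fell furthest. It had 77.3, 67.6 and 80.1 CPM at day 2. At 8 h untreated libraries were at 42.1, 50.9 and 50.2 CPM and RA-treated ones at 62.9, 58.1 and 77.7 CPM. For this one time all RA-treated libraries were the higher ones. At 18 h the values were 28.4, 28.8 and 31.3 CPM without RA and 18.4, 24.5 and 21.8 CPM with it, and at 30 h 11.4, 12.7 and 11.2 CPM and 4.01, 8.21 and 5.05 CPM. Untreated libraries then had 7.66, 8.14 and 9.52 CPM at 42 h and 7.15, 6.95 and 8.24 CPM at 54 h, against 3.496, 4.43 and 6.02 CPM and 1.19, 2.92 and 2.77 CPM with RA. From 18 h to 54 h no RA-treated library overlapped the untreated range. The arms met again at 66 h (6.28, 5.62 and 5.27 CPM without RA, 6.89, 6.57 and 5.57 CPM with it) and at 78 h (6.08, 4.70 and 4.07 CPM, and 8.89, 6.96 and 5.11 CPM).

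In untreated organoids Nr0b1 fell by 1.34 on the log2 scale at 18 h relative to day 2 (SE 0.07, edgeR, adjusted p = 1.41e-08), by 3.12 at 42 h (SE 0.10, adjusted p = 3.72e-12) and by 3.94 at 78 h (SE 0.11, adjusted p = 2.37e-14). The corresponding log2 fold changes with RA were -1.81 ± 0.09 (adjusted p = 4.26e-11), -3.98 ± 0.13 (adjusted p = 9.51e-12) and -3.41 ± 0.14 (adjusted p = 4.71e-10). Between the arms, the log2 fold change was 0.48 ± 0.13 at 8 h (adjusted p = 0.0597), and 0.33 ± 0.08 (adjusted p = 0.00503) without RA replicate 3, and -0.44 ± 0.09 at 18 h (adjusted p = 0.00109). At 30 h it was -1.02 ± 0.27 and missed the limit on p (adjusted p = 0.0288), whereas without RA replicate 2 it was -1.39 (adjusted p = 1.54e-07). At 42 h it was -0.86 ± 0.19 (adjusted p = 0.00275), and -1.10 (adjusted p = 3.13e-04) without RA replicate 3. At 54 h Nr0b1 was called lower under RA, with -1.70 ± 0.25 (adjusted p = 2.26e-04). At 66 h and 78 h the values were 0.16 ± 0.13 (adjusted p = 0.340) and 0.52 ± 0.21 (adjusted p = 0.0600). The RA effect at 78 h exceeded that at 42 h by 1.37 ± 0.31 (interaction term, adjusted p = 0.00499), but leaving out any of 7 libraries (untreated 42 h replicate 3, RA 42 h replicates 1 and 2, untreated 78 h replicates 2 and 3, RA 78 h replicates 1 and 2) gave 1.16 to 1.37 with an adjusted p above the limit, at most 0.0149.

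**Figure D2:**
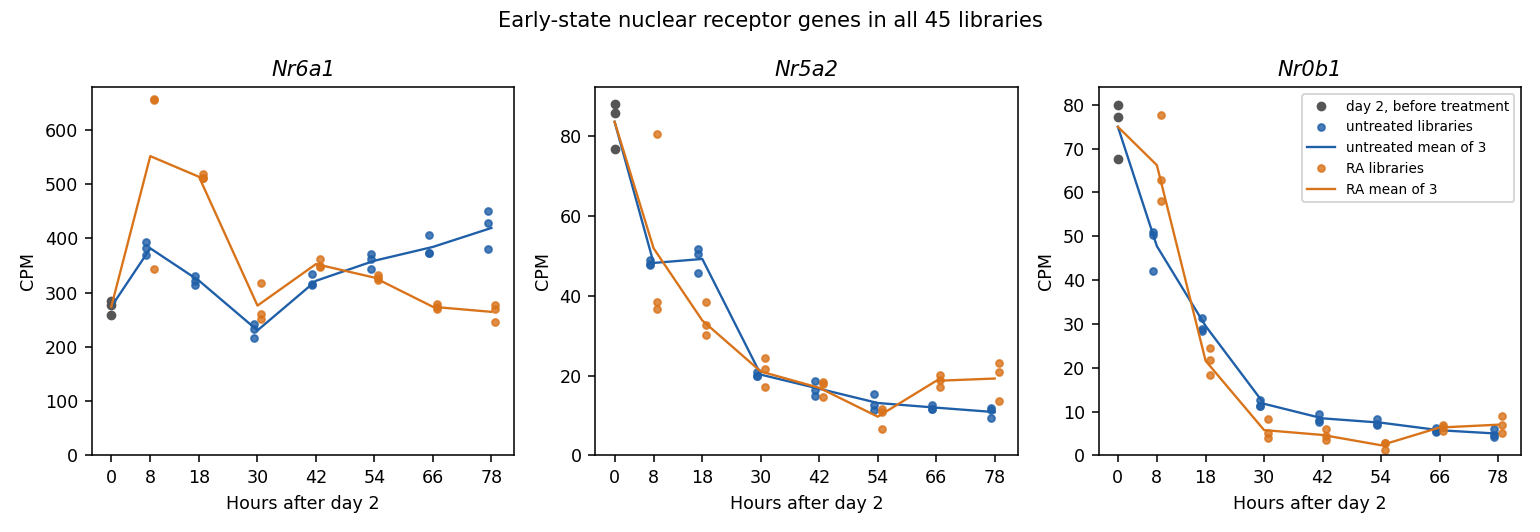
Level of Nr6a1, Nr5a2 and Nr0b1 (CPM, linear axes from 0) in each of 45 libraries against hours after day 2, with the same colours and lines through the means of 3. Nr5a2 and Nr0b1 declined in both arms, Nr6a1 crossed from higher to lower under RA between 42 h and 54 h, and the outlying RA point at 8 h (343 CPM for Nr6a1, 80.5 CPM for Nr5a2) is replicate 3.

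Counted over all members, 4 of 7 passed the filter on low counts at 8 h and 6 of 7 at each later time. At 8 h no member was called by edgeR, against 1.8% of all 15836 genes tested. Without RA replicate 3, 5 of 7 were tested and none was called, against 5.1% of all genes. Nr6a1, Nr5a2 and Nr0b1 then passed the limit on p but not on fold. Nr2f2, tested in that setting alone, had a log2 fold change of 1.24 ± 0.49 and missed the limit on p (adjusted p = 0.0655), and Nr2f6 had 0.11 (adjusted p = 0.319). Called were Nr2f1 and Nr2f2 at 18 h (2 of 6, against 10.9% of all genes), at 30 h (2 of 6, 8.45%) and at 42 h (2 of 6, 12.5%). At 54 h Nr2f1, Nr2f2 and Nr2f6 were higher and Nr0b1 lower (4 of 6, 13.2%). At 66 h only Nr2f1 was called (1 of 6, 11.5%) and at 78 h no member (0 of 6, 11.7%), although Nr2f1, Nr2f6, Nr6a1 and Nr5a2 had an adjusted p under 0.01 at 78 h with smaller folds. The share of all genes that pass the limit on p alone is not given, here or at 8 h without RA replicate 3. Members that passed on p alone are therefore not a result about the members. For the change of the RA effect, 3 of 6 members passed the adjusted p limit between 18 h and 42 h (16.2% of all genes) and 4 of 6 between 42 h and 78 h (12.6%).

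**Figure D3:**
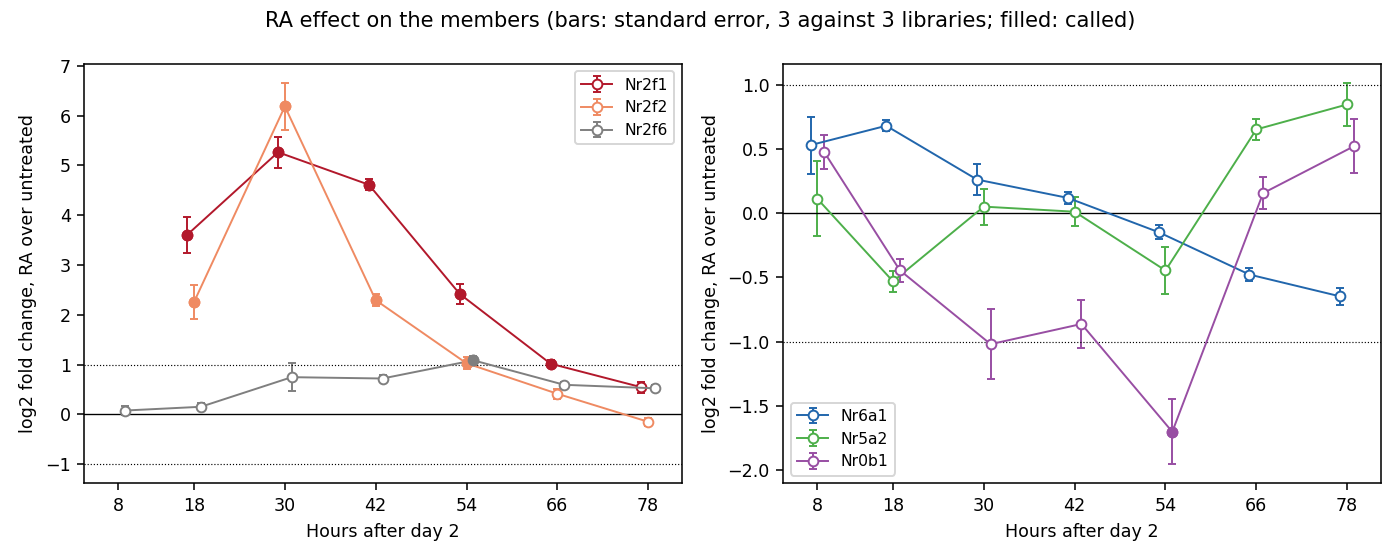
Log2 fold change of RA over untreated organoids at each of 7 times, with the standard error of edgeR's fit to 3 against 3 libraries as bars, filled points where a gene was called, and dotted lines at 1 and -1. Nr2f1 and Nr2f2 reached 5.26 and 6.18 at 30 h and 0.55 and -0.15 at 78 h, and Nr6a1 went from 0.68 at 18 h to -0.65 at 78 h. The panels have different vertical scales, and Nr2f1 and Nr2f2 were not tested at 8 h.

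The same members were set against day 2 in each arm, in comparisons that share the 3 day 2 libraries. Without RA, Nr0b1 alone was called at 18 h (1 of 4 tested, 4.56% of all genes), and Nr2f1, Nr2f2, Nr5a2 and Nr0b1 were called at 42 h (4 of 6, 21.8%) and at 78 h (4 of 6, 34%). With RA those 4 were called at 18 h already (4 of 6, 20.2%), and Nr2f6 joined them at 42 h (5 of 6, 32%) and 78 h (5 of 6, 37.4%). Nr2f1 and Nr2f2 passed the filter on low counts here only through the later group, where they are high. The log2 fold change of Nr2f1 since day 2 was 5.16 ± 0.44 at 42 h and 9.78 ± 0.17 at 78 h in untreated organoids, and 5.10 ± 0.47, 9.76 ± 0.19 and 10.31 ± 0.28 at 18 h, 42 h and 78 h with RA. These rest on the 4 counts of day 2, so that the ratio of 1350 at 78 h with RA has an exact 95% interval of 528 to 4970. For Nr2f2, with 14 counts at day 2, the log2 fold changes were 4.71 ± 0.29 and 8.12 ± 0.18 untreated, and 2.43 ± 0.39, 6.99 ± 0.18 and 7.95 ± 0.14 with RA. Nr2f6 with RA rose by 1.14 ± 0.10 at 42 h and 1.38 ± 0.10 at 78 h. Scaling by library totals in place of TMM shifted all genes, by a median log2 fold change of more than 0.1 at RA 18 h and 30 h and in 5 of the 6 comparisons with day 2, for example from 0.04 to 0.20 at 78 h with RA, and under it Nr6a1 at 78 h with RA turned from -0.05 to 0.11. By the library numbers in the sample titles, all libraries of 66 h and 78 h belong to a later series than day 2 replicates 1 and 2. RA 30 h replicates 2 and 3 and untreated 54 h replicate 3 are also of the later series, unlike the other libraries of those times. The arms at 30 h and 54 h thus differ in part by series. All 42 h libraries are of the earlier series, so a change from 42 h to 78 h cannot be told apart from a difference between series. Set against day 2 replicate 3 alone, which is of the later series, the calls at 78 h were the same, but that fit takes each gene's residual spread from the 3 libraries of 78 h alone and assumes that the lone library varies like them.

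To compare genes with each other, levels were divided by the merged exon length and are CPM per kb in this paragraph. At day 2 the order was Nr0b1 (41.5 ± 3.62, SD, n = 3), Nr6a1 (25.3 ± 1.24), Nr5a2 (14.2 ± 1.01) and Nr2f6 (10.8 ± 1.57), with Nr2f2 (0.0238 ± 0.000508) and Nr2f1 (0.0120 ± 0.00663) far below. The libraries of each of the first 3 of these genes did not overlap with those of the next. At 78 h without RA it was Nr6a1 (38.7 ± 3.30), Nr2f6 (19.7 ± 0.730), Nr2f1 (10.9 ± 0.575), Nr2f2 (6.75 ± 0.867), Nr0b1 (2.74 ± 0.568) and Nr5a2 (1.84 ± 0.213). At 78 h with RA Nr2f6 (28.1 ± 1.98) stood above Nr6a1 (24.4 ± 1.495), Nr2f1 (15.8 ± 2.95), Nr2f2 (6.03 ± 0.254), Nr0b1 (3.87 ± 1.05) and Nr5a2 (3.26 ± 0.841), of which Nr0b1 and Nr5a2 overlapped. All libraries of Nr2f1 first lay above all libraries of Nr0b1 and Nr5a2 at 42 h with RA and at 66 h without, and for Nr2f2 this was 54 h with RA and 66 h without. Neither gene rose above Nr6a1 in either arm.

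As a summary of this handover, the summed CPM per kb of Nr6a1, Nr5a2 and Nr0b1 was expressed as a share of the sum that also includes Nr2f1, Nr2f2 and Nr2e1. The share was 99.96% ± 0.00915 (SD, n = 3) at day 2. In untreated organoids it was 97.2% ± 0.379 at 42 h and 71.0% ± 2.13 at 78 h, and with RA it was 91.5% ± 0.511 at 30 h, 73.2% ± 1.87 at 42 h and 59.3% ± 3.57 at 78 h. The libraries of RA 42 h (71.5 to 75.2%) overlapped those of untreated 78 h (69.0 to 73.3%). Nr6a1 made up most of the early-state sum at the later times, so the share was also taken without it. Nr5a2 and Nr0b1 then held 99.94% at day 2, 87.5% ± 2.40 at untreated 42 h and 20.6% ± 3.08 at untreated 78 h. With RA they held 69.3% ± 2.98 at 30 h, 28.1% ± 5.32 at 42 h and a lowest mean of 13.1% ± 5.62 at 54 h, and at 78 h they held 24.8% ± 7.29, which overlapped the untreated libraries. Shares of these sums are descriptions without a test, and their members were chosen for their known roles.

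**Figure D4:**
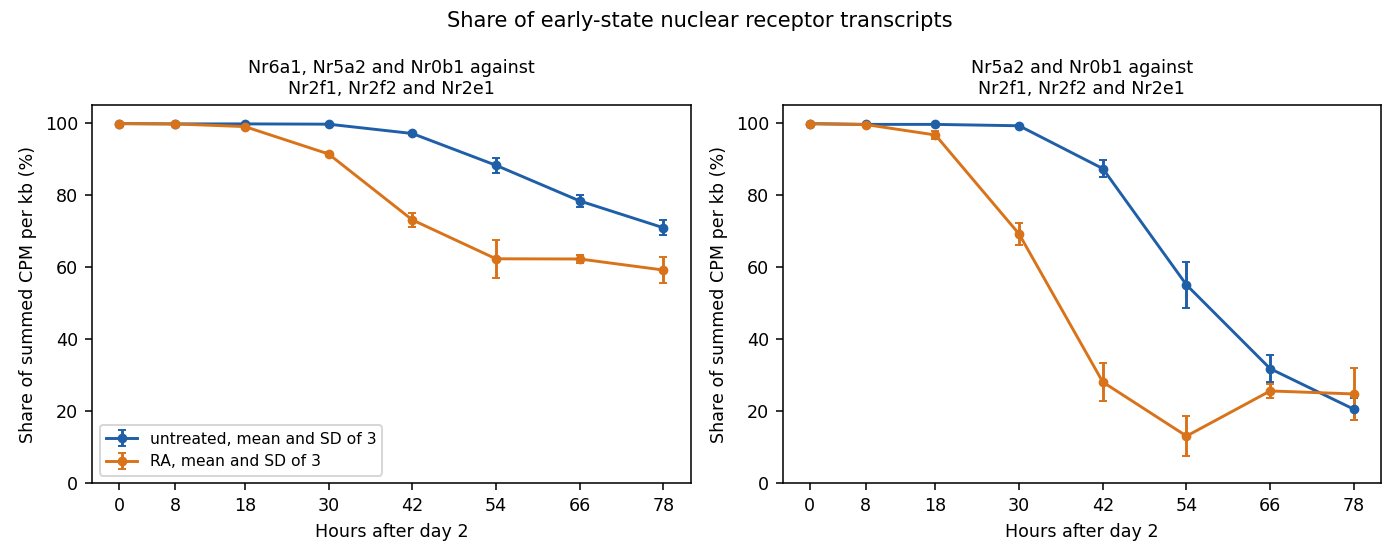
Share (%) of summed CPM per kb held by the early-state genes against hours after day 2, as mean and SD of 3 libraries, for Nr6a1, Nr5a2 and Nr0b1 together (left) and without Nr6a1 (right), each against Nr2f1, Nr2f2 and Nr2e1. The RA curve lay below the untreated one from 18 h to 78 h on the left, with 73.2% against 97.2% at 42 h, and both arms ended close together on the right, at 24.8% and 20.6%.

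The 42 other nuclear receptor genes and 25 coregulator genes give the setting. Of the other receptors 28 to 33 were tested at a given time, and 1, 5, 7, 8, 10, 10 and 9 were called from 8 h to 78 h, which is 3.57, 17.9, 24.1, 24.2, 32.3, 32.3 and 27.3% of those tested against 1.8, 10.9, 8.45, 12.5, 13.2, 11.5 and 11.7% of all genes. Their median log2 fold change lay between -0.11 and 0.04. The number called under RA at any of the 7 times was 14 of 33 tested, 6 of them higher and 8 lower. The share of all genes called at any of the 7 times was not taken. Among the receptors called at 5 times or more were Rarb, Rxrg and Pgr. Rarb, an RA receptor that is itself a target of RA, rose at all 7 times, with 53.2 to 59.5 CPM at 42 h against 0.685 to 1.03 CPM without RA (log2 fold change 6.03 ± 0.11). Rxrg, a partner receptor, was lower at 6 times, with 0.955 to 1.17 CPM against 18.7 to 21.6 CPM at 42 h (-4.28 ± 0.13). The progesterone receptor gene Pgr was lower at 5 times, with 2.05 to 3.42 CPM against 7.61 to 11.2 CPM at 42 h (-1.80 ± 0.22). Since day 2, 18 of 31 other receptors tested were called at 78 h in each arm, against 34% of all genes without RA and 37.4% with it.

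Coregulators are the proteins through which nuclear receptors act on chromatin, and 5 of 25 were called under RA at any time, 2 higher and 3 lower. Here too the share of all genes called at any time was not taken. At single times from 8 h to 78 h, 8.33, 12.5, 17.4, 16.7, 16.7, 20.8 and 8% of those tested were called. These are to be read against the shares of all genes at each time, given above for the other receptors. Called at 4 times or more were Nrip1, Bcl11a and Bcl11b. Nrip1, a corepressor of many receptors, rose at 6 times, with 137.8 to 175.5 CPM in RA-treated organoids at 8 h (log2 fold change 3.39 ± 0.12) and a log2 fold change of 0.70 ± 0.06 by 78 h. Bcl11a and Bcl11b encode zinc finger proteins first described as partners of the COUP-TFs. Bcl11a was lower at all 7 times, with 0.280 to 0.826 CPM against 14.3 to 16.3 CPM at 42 h (-4.58 ± 0.22). Bcl11b was lower at 6 times, with 0.420 to 0.826 CPM against 4.75 to 6.53 CPM at 42 h (-3.36 ± 0.26). From 18 h to 54 h all 4 genes were called at each time, Nr2f1 and Nr2f2 higher and Bcl11a and Bcl11b lower. Bcl11a was also called at 8 h, when Nr2f1 and Nr2f2 were not tested, and at 78 h, when neither was called. A link between these genes was not tested.

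Among 13092 protein-coding genes of at least 1 CPM on average, the 3 whose log2(CPM + 1) correlated best with each member over the 15 group means were listed as a description, since the means share libraries and a common time course. For Nr2f1 they were Tmtc2 (Pearson r = 0.993), Zbtb16 (0.991) and Rfx4 (0.990), and for Nr2f2 Hmga2 (0.992), Cxcr4 (0.991) and Robo2 (0.989). For Nr5a2 they were Zfp42 (0.983), Zyg11a and Kank3, and for Nr0b1 Suz12 (0.988), Epp13 and Smarcad1. For Nr2f6 they were Mknk2 (0.988), Flii and Trp53i13. Nr6a1 had no partner that close, with Tvp23b (0.804), Tmc3 (0.801) and Sclt1 (0.798) as its nearest.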

How the data were processed

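RNA of 45 mouse organoid libraries was sequenced by the authors from directional poly(A) libraries. Per the labels and the study's methods, the authors trimmed reads with Trim Galore 0.5.0, removed abundant sequences with Bowtie2 2.3.4.1, mapped them to GRCm38 (STAR), and deposited featureCounts output (Subread 1.6.2) as raw counts of each gene, not normalized. Columns were matched to samples by the library number in each title, with no column left over. Gene IDs were given symbols and positions from GENCODE M21, which is not the annotation release of the counting, so overlaps and exon lengths may differ. The protocol in the labels gives another unit of dose and partly other times than the design text and titles, which were followed.

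From the counts, edgeR 4.0.16 in R 4.3.3 (TMM, filterByExpr with a minimum count of 10 and minimum total of 15, glmQLFit and glmQLFTest) compared the 6 libraries of each comparison, or the 12 of each interaction. A call needed an adjusted p under 0.01 together with an absolute log2 fold change over 1 (the study's limits, which it required at both 18 h and 30 h with DESeq2, applied here to each comparison alone), and for interactions the adjusted p alone. SEs are the size of the log2 fold change divided by the square root of F. Levels are CPM after TMM over all 45 libraries. With 3 against 3 libraries an exact permutation test cannot go below p = 0.1, so none was used. The scripts were tested on simulated data. Replicates in all 45 pairs differed by more than sampling noise. Replicate numbers come from the titles. Deviations of same-numbered libraries correlated above 0.1 in all 3 pairs at 66 h only (0.465, 0.166 and 0.209), where the paired fit with the replicate block kept every member's call.

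The members and gene lists were chosen with earlier results of these data known. Named are the 7 members, the 3 genes most like each, other receptors called at 5 or more of 7 times and coregulators called at 4 or more. Some genes within this rule are not reported here. Other settings tried were DESeq2 1.42.0, scaling by RLE or by library totals, one fit of all 45 libraries, other count filters, the replicate block, a looser threshold, one library series and each library left out. Intervals on counts cover counting error only.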

Additional observations from a re-analysis of the deposited data

Results flagged for a closer look

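For 6 of the 7 members the interaction term of edgeR's fit passed the limit in at least 1 interval (adjusted p under 0.01). These results are listed for that reason. Of all genes, 16.2% passed this limit between 18 h and 42 h and 12.6% between 42 h and 78 h. The share over both intervals together was not taken. Between 18 h and 42 h the log2 fold change moved by 0.589 for Nr2f6 (adjusted p = 0.00123), by -0.541 for Nr6a1 (adjusted p = 7.47e-06) and by 0.568 for Nr5a2 (adjusted p = 0.00775). Between 42 h and 78 h it moved by -4.08 for Nr2f1 (adjusted p = 5.40e-09), by -2.46 for Nr2f2 (adjusted p = 5.87e-08), by -0.786 for Nr6a1 (adjusted p = 8.77e-06) and by 1.37 for Nr0b1 (adjusted p = 0.00499). The 2 intervals share the libraries of 42 h. The calls of Nr5a2 and of Nr0b1 were lost when certain single libraries were left out, as given with these genes. One fit of all 45 libraries called 0 members between 18 h and 42 h. The libraries of 42 h and 78 h are of different series, so that change cannot be told apart from a difference between series. Groups of 3 libraries are too small for a test of single extreme libraries, so RA 8 h replicate 3 and RA 30 h replicate 2 are described by their values in the report.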

How the results depend on the processing

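The number of members called was within 1.5 times the reported one in 115 of 128 alternatives that kept all libraries and in 100 of 102 that left one out. At an adjusted p of 0.05 and without a fold limit, 5 members were called at 18 h, 4 at 42 h, 5 at 66 h and 4 at 78 h under RA, and 4 in untreated 18 h against day 2. The share of all genes that passes this looser threshold is not given here, so these counts are not a result about the members. A filter of at least 10 counts in every library removes Nr2f1 and Nr2f2 where one group is near 0, and left 0 calls at 18 h, 0 at 30 h, 2 each for untreated 42 h, untreated 78 h and RA 18 h against day 2, and 3 each for RA 42 h and RA 78 h against day 2. One fit of all 45 libraries called 0 members for the effect at 42 h minus 18 h, and the cause was not tested. Leaving out one library gave 0 to 1 calls at 66 h (0 without untreated replicate 2) and 0 to 1 at 78 h (1 without RA replicate 3).

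Single log2 fold changes kept their direction and side of the threshold in 613 of 632 alternatives with all libraries and in 556 of 588 with one left out. Signs turned only for values near 0 or at 8 h. Nr5a2 at 8 h was -0.368 without RA replicate 3 (leave-one-out range -0.368 to 0.316), at 30 h -0.0585 without RA replicate 3 (range -0.0585 to 0.161), and at 42 h -0.00252 with RLE size factors, -0.00334 with DESeq2 and -0.0713 to 0.109 with one library left out. Nr6a1 in RA 78 h against day 2 was 0.111 with library totals, 0.00754 with one library series and -0.108 to 0.0151 with one library left out. For Nr2f2 the effect at 42 h minus 18 h was -0.00772 with library totals and -0.19 to 0.252 with one library left out. Of results that lost or gained a call, Nr0b1 at 30 h was called with DESeq2 (-1.04, adjusted p = 0.00202), with one fit of all libraries (-1.01) and without a filter (-1.05). In the earlier library series alone, which leaves 1 RA library at 30 h, its log2 fold change was -1.55.

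Whether equal replicate numbers mark a pairing is not stated in the titles. Deviations of same-numbered libraries correlated above 0.1 in all 3 pairs at 66 h only, where the replicate block changed no call. Elsewhere the replicate block ended the call of Nr5a2 between 18 h and 42 h (0.571, adjusted p = 0.0427), added one for Nr5a2 between 42 h and 78 h (0.790, adjusted p = 0.00767) and changed no other call. Depth limits Nr2f1 and Nr2f2 before 42 h in untreated organoids, and Nr2e1 throughout.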
